A study of Mus musculus with 28 samples.

Results

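The complement system is a cascade of blood and tissue proteins that tags surfaces and debris for uptake. C1q, built from the products of C1qa, C1qb and C1qc, starts the classical pathway by binding its target. C4b and C3 encode the components that are cleaved and deposited on it, and the fragments C3a and C5a signal through the receptors encoded by C3ar1 and C5ar1. Itgam encodes CD11b, the alpha chain of complement receptor 3, which binds deposited C3 fragments, and Serping1 encodes C1 inhibitor, which blocks the proteases of the C1 complex. In brain, microglia are known as the main source of C1q, and astrocytes as a source of C4.

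These 9 genes, C1qa, C1qb, C1qc, C4b, C3, Serping1, C3ar1, C5ar1 and Itgam, were chosen by symbol from the 40481 mouse genes of the count table, and all 9 passed the filter on low counts in each sort. They were followed in microglia and astrocytes from 13 mice, 26 libraries in all. Every mouse was APOE4fl/fl, with human APOE4 flanked by loxP sites, and every mouse received tamoxifen. The first group was APOE4fl/fl with no further allele (amyloid-free Cre-negative, 2 mice). A second group also carried ALDH1L1-CreERT, a tamoxifen-dependent Cre driven by an astrocyte promoter (amyloid-free Cre-positive, 2 mice). The other groups carried APPPS1, transgenes that produce amyloid plaques, without Cre (APPPS1 Cre-negative, 5 mice) or with ALDH1L1-CreERT (APPPS1 Cre-positive, 4 mice). The 2 intraperitoneal tamoxifen doses, 100 mg per kg each, were given when mice were 3.8 months old, and brains were taken after a further 10 days. Cells came from cortex, hippocampus and thalamus and were sorted with an antibody against CD11b for microglia and against ACSA-2 for astrocytes, except that 1 astrocyte label names no region. The sources used here do not give the extent of the floxed APOE segment.

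Total counts per library ran from 26162612 to 59238523. Levels are CPM, a gene's counts scaled to 1 common total of mouse gene counts in every library, given as mean ± SD. Human APOE stood at 620 ± 142 CPM in APPPS1 Cre-positive and 1521 ± 226 CPM in APPPS1 Cre-negative astrocytes, without overlap. In the libraries sorted as microglia, 10 microglia markers summed to 33106 to 41246 CPM, except 17444 CPM in mouse 26, and none of the 10 was at 0. In those sorted as astrocytes, 10 astrocyte markers summed to 26512 to 40108 CPM, again with none at 0. A 5th APPPS1 Cre-positive animal, mouse 459, was left out because its library labelled astrocyte held 34681 CPM of microglia markers and its library labelled microglia 137 CPM. Libraries that stood apart among microglia were mouse 26 (amyloid-free Cre-positive) and mouse 439 (APPPS1 Cre-negative), with 8111 and 6928 CPM over 12 monocyte and neutrophil markers against 272 to 3995 CPM in the others. Among astrocytes it was mouse 774 (APPPS1 Cre-negative), with 414 CPM of those markers against at most 5.14 CPM elsewhere.

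Positions in the mouse genome are those of GRCm38 (GENCODE M21). C1qa (chr4:136895917-136898803), C1qc (chr4:136889804-136893065) and C1qb (chr4:136880129-136886187) stand side by side on the minus strand within 18.7 kb. C3 is at chr17:57203970-57228136, C4b at chr17:34728380-34743882, C3ar1 at chr6:122847138-122856161, C5ar1 at chr7:16246743-16259540 and Serping1 at chr2:84765387-84775444, all on the minus strand. Itgam is at chr7:128062640-128118491 on the plus strand. RefSeq promoter windows (GRCm38.p6, 250 bases before the start) matched 6 of the 9 genes. The windows of C1qb, Itgam and C3 are shown because these genes stood for the contrasting patterns below. They were a subunit higher with amyloid when averaged over Cre, a receptor with little difference, and a component whose level varied widely between microglia libraries. The windows are chr4:136886201-136886450 (minus strand), chr7:128062390-128062639 (plus strand) and chr17:57228137-57228386 (minus strand).
C1qb: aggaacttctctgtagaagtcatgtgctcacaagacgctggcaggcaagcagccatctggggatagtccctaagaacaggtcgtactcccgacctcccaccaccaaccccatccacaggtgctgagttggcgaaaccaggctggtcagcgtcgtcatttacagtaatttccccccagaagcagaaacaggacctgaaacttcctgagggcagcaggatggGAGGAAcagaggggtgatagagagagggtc
Itgam: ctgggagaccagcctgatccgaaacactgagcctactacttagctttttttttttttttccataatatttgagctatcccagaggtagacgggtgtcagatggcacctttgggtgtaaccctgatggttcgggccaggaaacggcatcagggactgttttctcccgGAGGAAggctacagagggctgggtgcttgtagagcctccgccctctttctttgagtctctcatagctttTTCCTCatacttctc
C3: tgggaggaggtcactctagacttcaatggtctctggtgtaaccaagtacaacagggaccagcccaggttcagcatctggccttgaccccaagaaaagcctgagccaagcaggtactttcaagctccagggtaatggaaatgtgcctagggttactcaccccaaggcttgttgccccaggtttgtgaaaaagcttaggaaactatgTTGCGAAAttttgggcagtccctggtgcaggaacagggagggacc
Capitals mark, on either strand, the core GAGGAA of PU.1, a transcription factor of the myeloid lineage, and the core TTGCNNAA of C/EBP factors. GAGGAA was found at -30 in C1qb, at -84 and -15 in Itgam and at -193 in C1qc, and in none of the C3, C3ar1 and C5ar1 windows. Of 32851 promoter windows of this length, 23.3% hold GAGGAA. TTGCNNAA was found in C3 alone of the 6, at -45, and 9.56% of all windows hold it. The interferon-stimulated response element, searched in its usual form, was found in none of the 6 windows and in 2.98% of all windows. TATAAA was found in C3ar1 alone, at -235, and in 12.4% of all windows. None of the motifs overlapped another in the windows shown.

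The 9 genes divided between the sorts. The C1q subunits, the 3 receptors and C3 were higher in microglia, and C4b and Serping1 were higher in astrocytes. C1qb was the most abundant, at 8574 ± 2250 CPM in microglia and 4.76 ± 2.61 CPM in astrocytes (n = 13 each). C1qc stood at 2069 ± 542 and 1.30 ± 1.04 CPM, and C1qa at 1877 ± 380 and 0.864 ± 0.759 CPM. No library of either sort approached the range of the other for these subunits. All 9 genes passed the test between sorts, 7 higher and 2 lower in microglia, where 76.5% of 21612 genes passed, 35.4% higher and 41.1% lower in microglia (edgeR quasi-likelihood test, Benjamini-Hochberg adjusted p under 0.05). With DESeq2, C3ar1 and Itgam received no adjusted p, and the other 7 passed. The fitted log2 differences were 11.84 ± 0.47 (SE) for C1qa, 11.24 ± 0.50 for C1qb and 11.05 ± 0.62 for C1qc.

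Per kilobase of exon, C1qb had the highest level of the 9 in microglia, at 7880 ± 2068 CPM per kb. C1qa followed at 1805 ± 365 and C1qc at 1072 ± 281 CPM per kb. The ratio of C1qa to C1qb per length was 0.239 ± 0.046 and ranged from 0.196 to 0.375 over the 13 microglia libraries. The ratio of C1qc to C1qb was 0.138 ± 0.016, or 0.221 when the longest annotated transcript gave the length, because the union of C1qc exons (1931 bases) exceeds that transcript (1203 bases). By the longest transcript C1qa and C1qc stood close, at 1805 and 1720 CPM per kb. The 3 subunits enter the protein in equal numbers, whereas C1qb counts per length stood above those of C1qa and C1qc by either length. How far reads per transcript differ between genes was not tested. Next in order came C5ar1 at 173 ± 40.2, Itgam at 166 ± 24.6 and C3ar1 at 127 ± 29.2 CPM per kb, and the ranges of these neighbours overlap. C3 (3.87 ± 4.46) and C4b (3.69 ± 1.44) did not differ beyond their spread, and Serping1 was lowest at 0.182 ± 0.207 CPM per kb. In astrocytes the order was C4b at 13.7 ± 6.18, C1qb at 4.38 ± 2.40 and Serping1 at 3.83 ± 1.51 CPM per kb. The next was C5ar1 at 2.40 ± 8.38 CPM per kb, from mouse 774, with every other gene under 1 CPM per kb.

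The receptors were found at 547 ± 126 CPM for C3ar1, 444 ± 103 CPM for C5ar1 and 833 ± 124 CPM for Itgam in microglia. Itgam encodes the antigen of the microglia sort, so its log2 difference of 10.98 ± 0.86 describes the sort and is no finding. C3ar1 differed by 10.54 ± 0.81 and C5ar1 by 10.64 ± 1.49 on the log2 scale. In astrocytes C5ar1 had 0 counts in 7 of 13 libraries, where 3 counts, the limit that a count of 0 allows, come to 0.0507 to 0.115 CPM over all libraries, and 77.9 CPM (3226 counts) in mouse 774, which also held the highest Itgam level (9.22 CPM) and the monocyte and neutrophil markers given above.

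The astrocyte mean was 0.0460% of the microglial mean for C1qa, 0.0556% for C1qb, 0.0628% for C1qc, 0.0906% for C3ar1, 0.151% for Itgam and, with mouse 774, 1.39% for C5ar1. Markers of microglia in the same astrocyte libraries stood at 0.0213% for Trem2, 0.0432% for Csf1r, 0.0620% for Cx3cr1, 0.0879% for Tmem119, 0.184% for P2ry12 and 16.7% for Sall1. The C1q percentages lay within this range, and so did that of C3, at 8.85%. C3 encodes the central component of the cascade and is often listed as a marker of reactive astrocytes. It was at 19.9 ± 22.9 CPM in microglia (median 12.3) and at 1.76 ± 1.17 CPM in astrocytes, with ranges of 6.09 to 92.3 and 0.209 to 4.03 CPM that do not overlap. Its log2 difference was 3.92 ± 0.50 (adjusted p = 2.4e-07, edgeR).

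C4b was at 78.0 ± 35.2 CPM in astrocytes and 21.0 ± 8.18 CPM in microglia. The highest microglial library (36.3 CPM) stood just above the lowest astrocyte library (36.0 CPM), so the sorts overlapped by those libraries alone. The log2 difference was -1.20 ± 0.20 (adjusted p = 1.54e-05), and fitted with mouse as a replicate block, which pairs the sorts of 1 animal, it was -1.20 (adjusted p = 7.5e-05). C4b and its copy C4a share 35.2% of the 50-base stretches of their longest transcripts, so their counts are uncertain between the copies. Serping1 was at 8.91 ± 3.51 CPM in astrocytes and 0.424 ± 0.482 CPM in microglia, and no libraries overlapped. Its log2 difference was -4.23 ± 0.38 (adjusted p = 8.9e-10). Endothelial markers summed to 47.9 to 765 CPM in astrocyte and 31.2 to 269 CPM in microglia libraries, with none of the 10 at 0. Pericyte and fibroblast markers summed to 273 to 1366 and 1.56 to 51.1 CPM, with up to 2 of 9 at 0. Their part in the Serping1 difference was not tested.

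**Figure D1:**
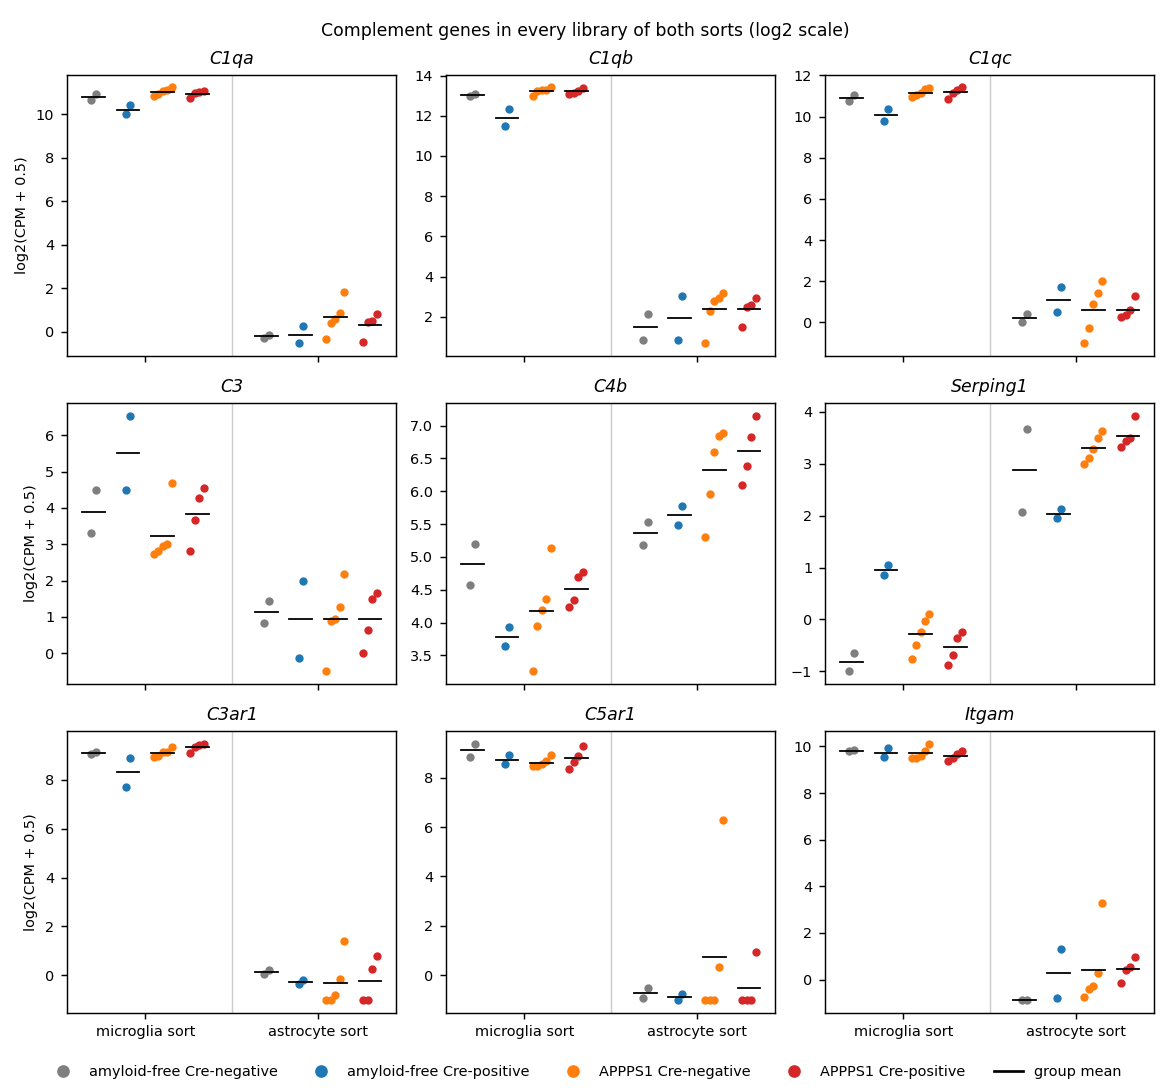
Level of each gene as log2(CPM + 0.5) in the 13 microglia and 13 astrocyte libraries, by genotype group, with 1 point per library and a line at the group mean. C4b and Serping1 stand higher in the astrocyte sort and the other 7 genes in the microglia sort, and the lone high astrocyte point of C5ar1 is mouse 774 at 77.9 CPM.

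Of 52 further complement genes, 42 were tested between sorts, and 15 were higher in microglia and 21 in astrocytes. Of all 21612 genes tested, 35.4% were higher in microglia and 41.1% in astrocytes. The list's median log2 difference was -1.13, against -0.18 over all genes tested. C5ar2, a second C5a receptor, stood at 186 ± 80.1 CPM in microglia and 0.267 ± 0.466 CPM in astrocytes (log2 difference 11). Csmd3, of a family of complement-regulating membrane proteins, stood at 130 ± 47.7 and 9.06 ± 4.41 CPM (4.47). Cr1l, the mouse regulator Crry, was closer, at 117 ± 12.8 and 67.1 ± 6.98 CPM (1.23). Clu, encoding clusterin, an inhibitor of the terminal complex, was at 8112 ± 1024 CPM in astrocytes and 9.24 ± 12.7 CPM in microglia (-9.64). Megf10, an engulfment receptor reported to bind C1q, was at 111 ± 17.5 and 0.0696 ± 0.138 CPM (-10.80).

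For amyloid averaged over Cre, the C1q subunits were the genes of the 9 that passed in microglia with edgeR, all higher. None of them passed in Cre-negative mice alone, as given below. The question is whether complement transcripts differ in the presence of the APPPS1 transgenes, averaged over Cre. With edgeR C1qa, C1qb and C1qc passed and no other of the 9 did, so 3 of 9 genes passed, while DESeq2 and limma voom each passed 4, C3ar1 being the other. All 3 were higher, where 6.06% of 17593 genes were higher and 9.58% passed in either direction. The median log2 difference of the 9 was 0.21, against -0.05 over all genes tested. Fewer microglia in a sort and less of a transcript per cell cannot be told apart in such libraries.

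C1qb gave 10912, 10071, 8113, 9617 and 9870 CPM in the APPPS1 Cre-negative mice 439, 447, 469, 774 and 779. It gave 8892, 9672, 8784 and 10680 CPM in the APPPS1 Cre-positive mice 443, 458, 460 and 475. The amyloid-free Cre-negative mice 465 and 759 gave 8197 and 8600 CPM, and the amyloid-free Cre-positive mice 22 and 26 gave 5205 and 2848 CPM. The amyloid-free Cre-negative libraries therefore lay inside the APPPS1 range, and the amyloid-free Cre-positive libraries lay below every other library. The log2 difference averaged over Cre was 0.87 ± 0.16 (adjusted p = 0.0079, edgeR).

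C1qa gave 2420, 2217, 1958, 2165 and 1847 CPM in APPPS1 Cre-negative and 1695, 2058, 2020 and 2119 CPM in APPPS1 Cre-positive microglia. Without amyloid it gave 1596 and 1932 CPM in the Cre-negative and 1357 and 1021 CPM in the Cre-positive mice. Mouse 759 alone of the amyloid-free mice fell inside the APPPS1 range, and the log2 difference was 0.64 ± 0.13 (adjusted p = 0.00889, edgeR).

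C1qc gave 2677, 2556, 2081, 1945 and 2260 CPM in APPPS1 Cre-negative and 1816, 2523, 2246 and 2735 CPM in APPPS1 Cre-positive microglia. Without amyloid it gave 1743 and 2142 CPM in the Cre-negative and 1301 and 878 CPM in the Cre-positive mice. Again mouse 759 alone overlapped with the APPPS1 libraries, and the log2 difference was 0.82 ± 0.16 (adjusted p = 0.00853, edgeR). None of the 9 genes separated the APPPS1 from the amyloid-free microglia without overlap, where 4.23% of genes did.

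Within Cre-negative mice the differences of the C1q subunits were smaller and none passed. They were 0.37 ± 0.17 for C1qa (adjusted p = 0.447), 0.32 ± 0.22 for C1qb (0.652) and 0.35 ± 0.21 for C1qc (0.589, edgeR). Of the 9 genes, 0 passed in this comparison, 1 had an unadjusted p under 0.05, and DESeq2 and limma voom passed 0 as well. Over all genes 0.313% (55) passed with edgeR, 454 genes with DESeq2 and 3 with limma voom. The test of the difference itself, amyloid in Cre-positive minus amyloid in Cre-negative mice, gave 1.10 ± 0.32 for C1qb (adjusted p = 0.52), 0.93 ± 0.30 for C1qc (0.52) and 0.54 ± 0.24 for C1qa (0.565, edgeR). No gene of 17593 passed that test with edgeR (0%; 1527 had an unadjusted p under 0.05, and 51 passed with DESeq2 and 0 with limma voom), so 0 of the 9 did, with 6 of 9 at an unadjusted p under 0.05 and 0 passing by DESeq2 or limma voom. Without mouse 22, C1qb passed it at 1.70 (adjusted p = 0.0263) and C3ar1 at 1.79 (adjusted p = 0.0242, edgeR), among 107 genes in all. That fit leaves mouse 26, which stood apart in its markers, as the only amyloid-free Cre-positive library and assumes that it varies like the other groups.

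The composition of the libraries varied too. Microglia markers summed to 33106 to 41077 CPM in APPPS1 (median 36084) and to 17444 to 41246 CPM in amyloid-free microglia (median 36297). The lowest was mouse 26, while mouse 22 of the same group stood at 34424 CPM. Monocyte and neutrophil markers summed to 272 to 6928 CPM (median 784) and 1695 to 8111 CPM (median 3385), with none of 12 at 0 in any library. The highest APPPS1 sum of these was that of mouse 439. Without mouse 26 the C1q subunits still passed, at 0.57 for C1qa (adjusted p = 0.0445), 0.71 for C1qb (0.0276) and 0.71 for C1qc (0.0447), while genes passing over the whole table went from 1685 to 432. Each subunit was also expressed as a percentage of the 10 summed microglia markers, a measure chosen after seeing the data, in 9 APPPS1 and 4 amyloid-free libraries. The permutations of these ratios took no account of Cre. Whether the markers themselves differ with amyloid was not tested, and they summed to 38170 to 41246 CPM in amyloid-free Cre-negative microglia. C1qb was 26.6% ± 3.65 and 18.5% ± 3.38 (exact two-sided permutation p = 0.0042, of 4 such ratios and not adjusted). C1qc was 6.40% ± 1.10 and 4.66% ± 0.82 (exact permutation p = 0.0168), and C1qa 5.67% ± 0.72 and 4.68% ± 0.95 (p = 0.0559). In mice 22 and 26 the C1qb percentages were 15.1% and 16.3%, and in mice 465 and 759 they were 19.9% and 22.5%.

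**Figure D2:**
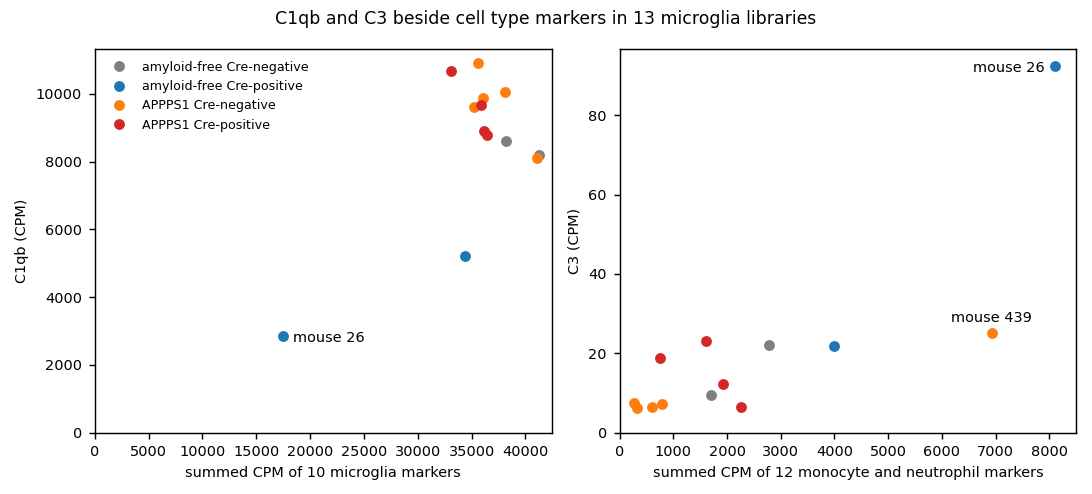
Left, C1qb against the summed CPM of 10 microglia markers, and right, C3 against the summed CPM of 12 monocyte and neutrophil markers, in 13 microglia libraries (CPM, 1 point per library). Mouse 26 has the lowest C1qb (2848 CPM) with the lowest microglia sum and the highest C3 (92.3 CPM) with the highest monocyte and neutrophil sum, and mouse 439 stands next in that sum.

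The receptors did not pass with amyloid in microglia. C3ar1, the C3a receptor, gave 500, 487, 555, 563 and 641 CPM in APPPS1 Cre-negative and 546, 646, 706 and 686 CPM in APPPS1 Cre-positive mice. It gave 535 and 564 CPM in amyloid-free Cre-negative and 470 and 210 CPM in amyloid-free Cre-positive mice. Mouse 26 was far below the rest, and the other amyloid-free values overlapped with or stood beside the APPPS1 range. In Cre-negative mice alone the C3ar1 log2 difference was 0.11 ± 0.25 (adjusted p = 0.926, edgeR). Means in those mice were 549 ± 60.9 CPM with APPPS1 and 550 ± 20.5 CPM without. Averaged over Cre the log2 difference was 0.61 ± 0.18 (adjusted p = 0.0505, edgeR), just short of the threshold. That average passed with DESeq2 (adjusted p = 0.01) and limma voom (0.0311). Without mouse 26 it was 0.39 (adjusted p = 0.142), and without mouse 22 it was 1.01 (adjusted p = 0.00318). Relative to the microglia markers, C3ar1 was 1.64% ± 0.28 and 1.34% ± 0.12 (exact permutation p = 0.0601, n = 9 and 4). C5ar1, the C5a receptor, ranged from 324 to 626 CPM in APPPS1 and from 374 to 661 CPM in amyloid-free microglia (log2 difference -0.06 ± 0.18, adjusted p = 0.861). Itgam ranged from 658 to 1098 and from 743 to 978 CPM (0.02 ± 0.13, adjusted p = 0.957, with a 95% interval of -0.26 to 0.29). The directions of C5ar1 and Itgam turned when single libraries were left out.

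C3 and C4b did not pass in microglia. C3 gave 25.1, 7.25, 6.09, 7.47 and 6.49 CPM in APPPS1 Cre-negative and 23.1, 6.54, 12.3 and 18.9 CPM in APPPS1 Cre-positive mice. It gave 22.0 and 9.34 CPM in amyloid-free Cre-negative and 21.8 and 92.3 CPM in amyloid-free Cre-positive mice. Mouse 439 stood high among APPPS1 Cre-negative libraries and mouse 26 above all others. These libraries also held the most monocyte and neutrophil markers. Mouse 443, with C3 close to that of mouse 439, held 1603.5 CPM of these markers, and mouse 475 held 760 CPM. Mouse 458, with C3 at 6.54 CPM, held 2267 CPM of them. The part of these markers in the C3 levels was not tested. The log2 difference was -1.09 ± 0.45 (adjusted p = 0.131, edgeR), but -0.39 without mouse 26 (adjusted p = 0.71) and -1.40 without mouse 439 (adjusted p = 0.0248). C4b ranged from 9.05 to 34.8 CPM in APPPS1 and from 12 to 36.3 CPM in amyloid-free microglia (0.21 ± 0.26 averaged over Cre, adjusted p = 0.653). In Cre-negative mice the C4b difference was -0.53 ± 0.35 (adjusted p = 0.635, edgeR). The amyloid effect on C4b differed between Cre states by 1.47 ± 0.53 without passing (adjusted p = 0.524, edgeR). Serping1 had between 0 and 43 counts per microglia library, and its value of -0.14 ± 0.83 (adjusted p = 0.936) turned in direction with 1 library left out.

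Among the other complement genes, 35 of 52 were tested for amyloid in microglia, 3 were higher and 2 lower. By role, 1 of 10 classical and lectin genes was higher, 0 of 5 alternative and terminal genes passed, 1 of 11 regulators was lower, and of 9 receptors 2 were higher and 1 lower. Masp1, a protease of the lectin pathway, ranged from 3.86 to 15.0 CPM in APPPS1 and from 0.689 to 2.45 CPM in amyloid-free microglia, without overlap (log2 difference 2.52 ± 0.45, adjusted p = 0.00623, edgeR). Itgax, the alpha chain of complement receptor 4 and a marker of plaque-associated microglia, was at 96.9 ± 42.7 CPM (n = 9) and 27.6 ± 24.0 CPM (n = 4), a log2 difference of 2.15 ± 0.40. Calr, encoding calreticulin, which binds C1q, was at 659 ± 104 and 502 ± 134 CPM (0.55 ± 0.15), and did not pass without mouse 26 (adjusted p = 0.143) or without any of 7 other single libraries.

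Clu fell, from 22.8 ± 16.2 CPM in amyloid-free to 3.20 ± 2.93 CPM in APPPS1 microglia (-2.57 ± 0.44, adjusted p = 0.00476, edgeR). Astrocyte markers in these microglia libraries summed to 246 to 380 CPM in amyloid-free and 130 to 236 CPM in APPPS1 mice, with up to 3 of 10 at 0, and their part in the Clu difference was not tested. Cd93, a receptor once described as binding C1q, fell from 15.1 ± 9.87 to 5.65 ± 2.24 CPM (-1.18 ± 0.29). It did not pass without mouse 26 (-0.75, adjusted p = 0.197) or without mouse 465 or 759. Endothelial markers summed to 56.1 to 269 CPM in amyloid-free and 31.2 to 72.2 CPM in APPPS1 microglia, none of 10 at 0, and their part was not tested either. In Cre-negative mice alone Itgax passed, as 1 of 35 (3.06 ± 0.60, adjusted p = 0.0472), but not with limma voom (adjusted p = 0.149), with only the compared groups in the fit (adjusted p = 0.15) or in 9 of the 13 fits that left out 1 mouse (adjusted p from 0.0714 to 0.421).

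Between APPPS1 mice with and without the astrocyte Cre, no change of these genes was detected in microglia. Human APOE in those microglia was at 781 ± 332 CPM with Cre and 433 ± 292 CPM without. Of the 9 genes, 0 passed with edgeR, where 0.00568% of genes did, 0 had an unadjusted p under 0.05, and DESeq2 and limma voom passed 0 of the 9 (6 and 1 of all genes). The log2 differences, Cre-positive minus Cre-negative, were -0.12 ± 0.14 for C1qa, -0.05 ± 0.18 for C1qb and -0.0016 ± 0.17 for C1qc. Their 95% intervals were -0.41 to 0.17, -0.43 to 0.33 and -0.36 to 0.36. C3 differed by 0.54 ± 0.51, C4b by 0.21 ± 0.29, C3ar1 by 0.21 ± 0.20, C5ar1 by 0.20 ± 0.20 and Itgam by -0.12 ± 0.14. For Serping1, with 2 to 27 counts a library in these mice, the value was -0.76 ± 0.78. Of the other complement genes 0 of 35 passed with edgeR, and 2 had an unadjusted p under 0.05. The lowest p-values belonged to Fcna, encoding a ficolin of the lectin pathway (1.4 ± 0.40, adjusted p = 1), and C4a (-1.10 ± 0.51, adjusted p = 1, edgeR). Fcna and Clu had the lowest p of these genes in the test of the amyloid effect between Cre states, at 4.00 ± 0.77 (adjusted p = 0.221) and -2.92 ± 0.95 (adjusted p = 0.52, edgeR). Fcna passed that test with DESeq2 (4.01, adjusted p = 0.000195), with no filter on low counts (4.06, 0.00631) and without mouse 443 (4.34, 0.00245), but not with limma voom (3.75, 0.498). Without mouse 443 it also passed for Cre in APPPS1 microglia (1.74, adjusted p = 0.0391).

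**Figure D3:**
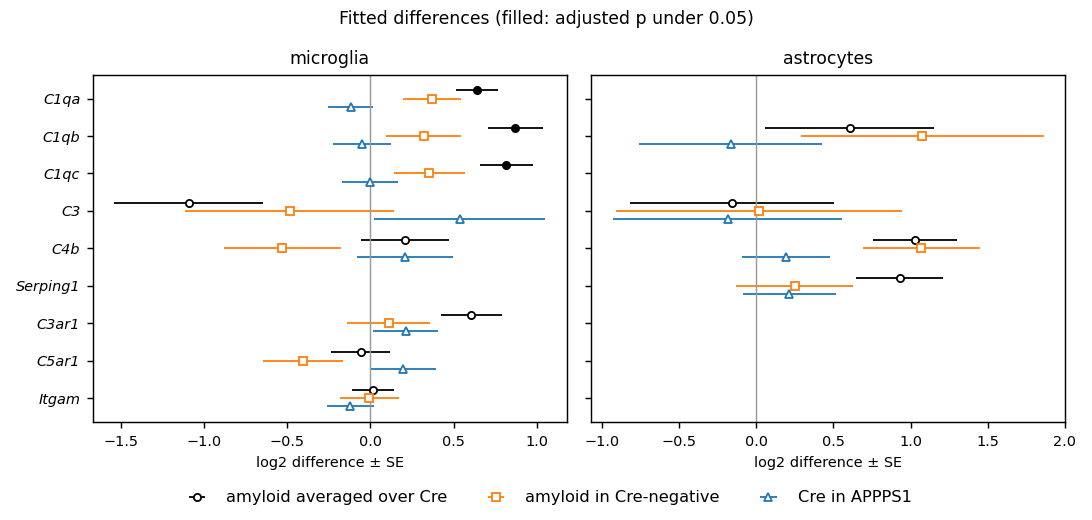
Fitted log2 differences with their standard errors in microglia (left) and astrocytes (right) for amyloid averaged over Cre, amyloid in Cre-negative mice and Cre in APPPS1 mice. Filled points pass at an adjusted p under 0.05, which only the microglial C1q subunits for amyloid averaged over Cre do, and genes with few counts in a sort are not drawn there.

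In astrocytes C4b and Serping1 had the lowest p-values of the 9 for amyloid, but 0 of 9 passed with edgeR, and neither did any of 20052 genes (0%, with 1409 at an unadjusted p under 0.05, 254 passing with DESeq2 and 0 with limma voom). At an unadjusted p under 0.05 there were 2 of the 9. DESeq2 passed C4b, 1 of the 8 it gave an adjusted p, and limma voom passed 0. C4b gave 96.8, 61.5, 38.9, 117 and 114 CPM in APPPS1 Cre-negative and 83.0, 112, 67.9 and 142 CPM in APPPS1 Cre-positive astrocytes. It gave 36.0 and 45.7 CPM in amyloid-free Cre-negative and 44.3 and 54.4 CPM in amyloid-free Cre-positive astrocytes. Mouse 469 was the only APPPS1 library within the amyloid-free range, and the other 8 stood above it. None of the 9 genes separated the groups without overlap in astrocytes, where 0.15% of genes did. The log2 difference was 1.03 ± 0.27 with a 95% interval of 0.44 to 1.62 (adjusted p = 0.361, edgeR) and 1.02 with DESeq2 (adjusted p = 0.00817). In Cre-negative mice it was 1.07 ± 0.38 (adjusted p = 1).

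Serping1 gave 9.29, 7.51, 8.10, 10.7 and 11.8 CPM in APPPS1 Cre-negative and 14.7, 10.8, 9.50 and 10.3 CPM in APPPS1 Cre-positive astrocytes. It gave 3.70 and 12.3 CPM in amyloid-free Cre-negative and 3.37 and 3.86 CPM in amyloid-free Cre-positive astrocytes. Mouse 759 stood within the APPPS1 range, and the other 3 amyloid-free libraries below it. The log2 difference was 0.93 ± 0.28 averaged over Cre (adjusted p = 0.422) and 0.25 ± 0.38 in Cre-negative mice (adjusted p = 1, edgeR). Mouse 759 also had the highest sums of oligodendrocyte (23211 CPM) and pericyte and fibroblast markers (1366 CPM) among astrocyte libraries. Endothelial markers summed to 139 to 765 CPM in APPPS1 and 47.9 to 624 CPM in amyloid-free astrocytes, lowest in the Cre-positive amyloid-free mice (47.9 to 73.1 CPM), and their part in the C4b and Serping1 values was not tested.

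**Figure D4:**
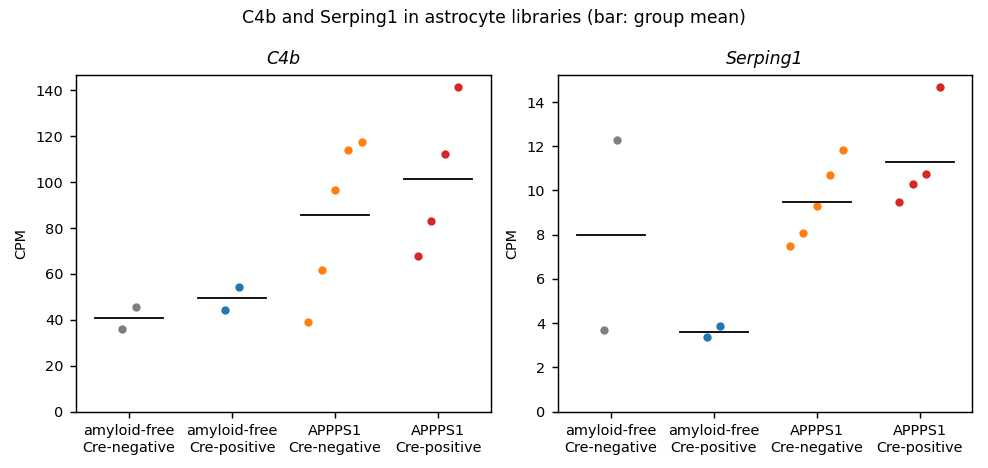
C4b (left) and Serping1 (right) in CPM in 13 astrocyte libraries by genotype group, with 1 point per library and a bar at the group mean. The C4b points of 8 of 9 APPPS1 libraries lie above all 4 amyloid-free libraries, and 1 amyloid-free library (12.3 CPM) lies among the APPPS1 points of Serping1.

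The microglial members were near 0 in astrocytes and their amyloid differences there had wide errors. C1qb ranged from 1.11 to 8.54 CPM in APPPS1 and from 1.31 to 7.63 CPM in amyloid-free astrocytes (0.60 ± 0.55, adjusted p = 0.927), and C3 from 0.209 to 4.03 and from 0.411 to 3.50 CPM (-0.16 ± 0.66, adjusted p = 0.997, edgeR). Values of 5.08 ± 2.64 for C5ar1 and 2.55 ± 1.24 for Itgam were largest without passing, and mouse 774 held the highest level of each. In Cre-negative astrocytes 0 of 9 genes passed with edgeR, DESeq2 or limma voom with 2 of 9 at an unadjusted p under 0.05. Of all genes 0% passed with edgeR there, 815 had an unadjusted p under 0.05, and 19 passed with DESeq2 and 0 with limma voom.

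With Cre in APPPS1 astrocytes, 0 of 9 genes passed with edgeR, DESeq2 or limma voom (0.00997% of all genes, 2, with edgeR, and 36 and 2 genes with the other tools), and 1 had an unadjusted p under 0.05, C5ar1 at -5.47 ± 2.44. Without mouse 774 the C5ar1 value was 0.90. C4b differed by 0.19 ± 0.29 (95% interval -0.43 to 0.81, adjusted p = 0.964) and Serping1 by 0.21 ± 0.30 (-0.43 to 0.86, adjusted p = 0.959, edgeR). In the test of the amyloid effect between Cre states, 0 of 9 genes passed with any of the 3 tools. The 2 with an unadjusted p under 0.05 with edgeR were Serping1 and Itgam. Of all genes 0.155% (31) passed with edgeR, and 577 passed with DESeq2 and 0 with limma voom. Serping1 was at 1.36 ± 0.55 (adjusted p = 0.359) and Itgam at -5.56 ± 2.39 (adjusted p = 0.393, edgeR). Itgam had 2 counts in each amyloid-free Cre-negative astrocyte library. C4b was at -0.08 ± 0.52 (adjusted p = 0.98).

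Of the other complement genes 36 of 52 were tested in astrocytes, and 0 passed these comparisons with edgeR. Those at an unadjusted p under 0.05 numbered 5 for amyloid averaged over Cre, 3 for amyloid in Cre-negative mice, 4 for Cre in APPPS1 mice and 11 for the amyloid effect between Cre states, where 1409, 815, 1343 and 2292 of 20052 genes did. For amyloid averaged over Cre C1qbp, a mitochondrial protein first isolated as a C1q binder, was among those of lowest p (-0.85 ± 0.30, adjusted p = 0.517, edgeR). In Cre-negative mice the lowest p-values were those of Itgb2, the beta chain of complement receptors 3 and 4, and of Cfp, encoding properdin (0.79 ± 0.33, adjusted p = 1). Itgb2 had 0 counts in both amyloid-free Cre-negative libraries and 1111 counts in mouse 774, and a fold is not given. With Cre they were those of C8a, with 1, 40, 44 and 1 counts in the 4 Cre-positive and 0 in the 5 Cre-negative APPPS1 libraries (adjusted p = 0.7), and of Calr (-0.43 ± 0.14, adjusted p = 0.7, edgeR). For the amyloid effect between Cre states Vtn, encoding the terminal pathway inhibitor vitronectin, was among them (3.20 ± 1.01, adjusted p = 0.229).

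The amyloid effect was compared between the sorts directly. Of the 9 genes 0 passed with edgeR, DESeq2 or limma voom, and 1 had an unadjusted p under 0.05 with edgeR, C5ar1 (-5.10 ± 2.44, adjusted p = 0.316). Of all genes 1.5% (325) passed with edgeR, and 1164 passed with DESeq2 and 169 with limma voom. C4b differed by -0.80 ± 0.40, microglia minus astrocytes (95% interval -1.64 to 0.03, adjusted p = 0.345), so the larger value in astrocytes is not shown to differ from that in microglia. Of the other complement genes, Masp1 (2.82, adjusted p = 0.00567) and Clu (-2.66, adjusted p = 0.0118) passed. With mouse as a replicate block neither passed, at 2.83 (adjusted p = 0.0581) and -2.71 (adjusted p = 0.057). Masp1 was at 18.0 ± 3.23 and 21.8 ± 7.19 CPM in APPPS1 and amyloid-free astrocytes, above its levels in microglia.

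Across the 13 microglia libraries the C1q subunits followed each other, with Pearson r on log2(CPM + 0.5) of 0.937 for C1qa and C1qb, 0.955 for C1qa and C1qc and 0.954 for C1qb and C1qc. C3ar1 followed C1qb at 0.870, and C3 ran the other way at -0.703. These libraries share sorts, genotype groups and the low values of mouse 26, and r is a description over 13 points. Of 8203 genes ranked in microglia, the most alike to C1qb were Nutf2 (0.980), Tcn2 (0.969) and Ddost (0.969). Nutf2 also led for C1qa (0.929, then Pgrmc1 at 0.925 and Txndc15 at 0.923) and for C1qc (0.950, then Naxe at 0.942 and Cradd at 0.935). C3 was most alike to Cd44 (0.967), Pilrb1 (0.962) and Cytip (0.956), and C3ar1 was close to Pmp22 (0.954) and Arl16 (0.938). C5ar1 and Itgam had no gene as close, with Ap1m1 (0.828) and Limk2 (0.816) among the nearest for C5ar1 and Epb41l2 (0.891), Snn (0.889) and Rap1gds1 (0.888) for Itgam. Of 9707 genes ranked in astrocytes, Serping1 was most alike to Oasl2 (0.932), Usp18 (0.925) and Lgals9 (0.916). C4b was close to Trim56 (0.871) and Afdn (0.857), and its r with Serping1 was 0.625.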

How the data were processed

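Raw counts per gene were deposited as 1 table of 95966 rows, of mouse and human genes. Per the submitters' processing notes, reads were aligned with STAR 2.5.1a and counted with featureCounts 1.4.6-p5, and settings and strandedness are not given in the sources used here. Gene IDs on several rows (258, with identical counts) were kept once. Human genes were left out of library sizes and tests. Libraries came from SMARTer kits without molecular identifiers, so a count of 0 (read as up to 3 counts) covers counting error only. Groups came from the genotype labels. The series design gives 4 mice per APPPS1 group and the labels 5.

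Mouse gene counts were fitted with edgeR 4.0.16 (R 4.3.3; TMM, filterByExpr by group, quasi-likelihood F test), 13 libraries of a sort in 1 fit and 26 in the fit across sorts. Adjustment (Benjamini-Hochberg) ran over the whole set tested, with a threshold of 0.05, and the steps were tested on simulated data. SE is the difference over the square root of F, and 95% intervals use the t distribution with the fit's moderated degrees of freedom. Alternatives were DESeq2 1.42.0, limma voom 3.58.1, DESeq2 size factors, no filter, only the compared groups, each mouse left out, mouse 459 kept as labelled, and a replicate block. Both sorts come from the same animal, so mouse numbers pair the libraries, and deviations of the paired libraries from their group means correlated with r from -0.061 to 0.304. Libraries of 1 group differed beyond counting noise (lowest chi-square divided by its degrees of freedom 36.7). The labels count each mouse as 1 sample.

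Members and lists were chosen with earlier results of these data known. Named were all 9 genes, of the other complement genes up to 6 that passed with the lowest p per comparison (otherwise the 2 of lowest p), and the 3 genes most alike to each of the 9 by Pearson r at a mean log2(CPM + 0.5) of at least 3. Some genes that this rule names are not reported here. Positions came from GENCODE M21, which matched 40340 mouse genes.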

Additional observations from a re-analysis of the deposited data

Results flagged for a closer look

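Of 36 groups of 4 or 5 libraries examined for a lone high or low value of the 9 genes, 5 held one. The limit used for a lone value gives about 1 in 20 only where values follow a normal distribution. Whether these CPM do was not tested, so no chance rate is set beside the 5. C3 was at 25.1 CPM in the microglia of mouse 439. In astrocytes, C3ar1 was at 2.16 CPM in mouse 779, C5ar1 at 77.9 CPM and Itgam at 9.22 CPM in mouse 774, and C5ar1 at 1.4 CPM in mouse 443. The other libraries in the group of mouse 443 had 0 counts of C5ar1, so any count there would be flagged.

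The amyloid effect differed between the sorts by a test of the difference for Clu (-2.66, microglia minus astrocytes on the log2 scale) and Masp1 (2.82). Both sorts come from the same mice, and with mouse as a replicate block neither passed (adjusted p = 0.057 for Clu and 0.0581 for Masp1, edgeR).

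The libraries of mouse 459 were outside the comparisons. Its library labelled astrocyte held 2099 CPM of C1qa, 10533 CPM of C1qb, 2317 CPM of C1qc, 580 CPM of C3ar1, 349 CPM of C5ar1, 701 CPM of Itgam and 4.82 CPM of C3. Its library labelled microglia held 91.6 CPM of C4b and 7.88 CPM of Serping1.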

How the results depend on the processing

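The number of the 9 genes that passed for amyloid in microglia averaged over Cre was 3, and 4 with DESeq2, limma voom, DESeq2 size factors or no filter. It ran from 3 to 5 with each mouse left out in turn (5 without mouse 439) and was 0 with mouse 459 kept as labelled. For the amyloid effect between Cre states in microglia it ran from 0 to 2 (2 without mouse 22, where 1 library is left in an arm), and for amyloid in astrocytes averaged over Cre it was 1 with DESeq2. All genes passing in microglia went from 1685 to 19 with mouse 459 kept and 2722 with DESeq2, and from 392 to 2441 with each mouse left out. In astrocytes they went from 0 to 254 with DESeq2. C1qc per C1qb was 0.221 by the longest transcript. With mouse 459 as labelled, direction turned for these log2 differences: Serping1 (1.23), Itgam (-0.12) and Clu (1.97) for amyloid in microglia, C3ar1 (-0.11) and C5ar1 (-0.12) for Cre in APPPS1 microglia, C4b (-0.0390), Serping1 (-0.10), Calr (0.16) and C5ar1 (2.70) for Cre in APPPS1 astrocytes, Clu for the amyloid effect between Cre states in microglia (6.15) and between sorts (1.98). The library of mouse 459 labelled microglia held 137 CPM of microglia and 36820 CPM of astrocyte markers. Its library labelled astrocyte held 34681 and 189 CPM of them. The part of these libraries in the turned directions was not tested. Serping1 for amyloid in microglia was 0.10 with limma voom. C1qc for Cre in APPPS1 microglia was 0.0066 with no filter and 0.0100 with only the compared groups. With each mouse left out in turn, averaged amyloid in microglia ran from -0.16 to 0.13 for C5ar1, from -0.0597 to 0.17 for Itgam and from -0.60 to 2.16 for Serping1. Amyloid in Cre-negative microglia ran from -1.10 to 0.30 for C3, and the amyloid effect between Cre states from -1.93 to 0.18. Cre in APPPS1 microglia ran from -0.11 to 0.0196 for C1qb and from -0.0929 to 0.0870 for C1qc. In astrocytes, C4b ran from -0.0187 to 0.34 for Cre in APPPS1 and from -0.30 to 0.0897 between Cre states, Serping1 from -0.39 to 1.38 for amyloid in Cre-negative mice, and C5ar1 from -12.41 to 0.90 for Cre in APPPS1. With mouse as a replicate block, 80 genes passed for the amyloid effect between sorts instead of 325, and Masp1 (2.83) and Clu (-2.71) did not. The block changed no call of the 9 genes. Depth did not limit the microglial genes, but Serping1 in microglia and the microglial genes in astrocytes had few counts.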
